A study of Mus musculus with 6 samples.

Results

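The miR-30 family arms were followed in small RNA of extracellular vesicles, particles enclosed by membrane that are shed by cells, isolated here from mouse brain tissue. The members were 9 mature miRNA names. The 5 from the 5p side of the hairpins were mmu-miR-30a-5p, mmu-miR-30b-5p, mmu-miR-30c-5p, mmu-miR-30d-5p and mmu-miR-30e-5p. The 4 from the 3p side were mmu-miR-30a-3p, mmu-miR-30d-3p, mmu-miR-30e-3p and mmu-miR-30c-2-3p. They are written below without the prefix mmu, which stands for mouse. Each name was matched to its own row of the authors' table of 1926 miRNA rows, of which 803 were above 0 in at least 1 library, and the rule is by name alone. The study has 2 groups of 3 libraries, SE-BDEV 1 to 3 from mice that had status epilepticus, a state of continuing seizure, and CON-BDEV 1 to 3 from matched control mice. All libraries are labelled day 10. The strain, age and sex of the mice, the agent that gave the seizures, the event from which the day is counted and whether animals were pooled were not given in the sources used here. Nothing in the labels states that the 3 libraries of a group are from different animals, and p-values therefore reflect a spread between libraries that may be technical.

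A miRNA hairpin is cut into a short duplex with a 5p and a 3p strand. Usually the guide strand is kept by an Argonaute protein and its partner, the passenger strand, is degraded. The guide pairs with messenger RNAs mainly through its seed, bases 2 to 8, so miRNAs that share a seed are grouped as a family. The miR-30 family is expressed in many tissues, brain included, and repression of Becn1, which acts in autophagy, and of Bdnf, a neurotrophin, has been described for miR-30a-5p.

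The mature sequences show which arms share a seed and which are hard to tell apart by sequencing. RefSeq (GRCm38.p6) gave a sequence for 6 of the 9 members, and for the related miR-30c-1-3p and miR-384-5p. Each is written 5′ to 3′ with the seed in capitals. The 5p arms, together with miR-384-5p, share 1 seed:
miR-30a-5p: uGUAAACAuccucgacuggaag
miR-30e-5p: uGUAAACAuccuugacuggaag
miR-30c-5p: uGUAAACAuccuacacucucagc
miR-384-5p: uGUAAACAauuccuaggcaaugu
The 3p arms fall into 2 seed groups, one of miR-30a-3p and miR-30e-3p and one of the miR-30c 3p arms:
miR-30a-3p: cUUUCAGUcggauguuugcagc
miR-30e-3p: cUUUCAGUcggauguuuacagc
miR-30c-2-3p: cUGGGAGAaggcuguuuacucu
miR-30c-1-3p: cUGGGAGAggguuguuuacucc

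Counted from the 5′ end, miR-30a-5p and miR-30e-5p differ at 1 base of 22 (C13U, miR-30a-5p first), and miR-30a-3p and miR-30e-3p also differ at 1 base (G18A, miR-30a-3p first). Whether the authors' counting allowed mismatches was not given in the sources used here, so the split between miR-30a and miR-30e is uncertain to that extent. miR-30c-2-3p and miR-30c-1-3p differ at 3 bases (A9G, C12U and U22C, miR-30c-2-3p first). The motif GGAG, which has been described in miRNAs sorted into vesicles, was looked for in the mature strand. It was found in miR-30c-2-3p and miR-30c-1-3p and in none of the other sequences printed here. It was present in 11.6% of the 352 miRNAs of 22 bases that were above 0, and in 12.6% of the 677 of any length. The motif CCCU was in none of the sequences printed here, against 8.52% of those 352 miRNAs and 10.3% of the 677. With so few sequences printed, its absence is no result about the family. A match describes only letters.

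The hairpins lie in pairs on the genome. Mir30a and Mir30c-2 are on the plus strand, with miR-30a-5p at chr1:23272274-23272295 and miR-30c-2-3p at chr1:23291754-23291775 (GRCm38.p6), and 19361 bases separate the hairpins. Mir30c-1 and Mir30e are on the minus strand, with miR-30e-5p at chr4:120772660-120772681, and 2983 bases separate them. In GENCODE M21 (GRCm38) both of the latter lie in an intron of Nfyc, a subunit gene of a CCAAT-binding transcription factor, and the Mir30c-2 hairpin overlaps an exon of the lincRNA Gm27028. The miR-30c-5p strand is identical in Mir30c-2 and Mir30c-1, so its reads cannot be assigned to either locus. The submitters' notes name another build, mm9, and the deposited tables hold no coordinates.

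Values are RPM, reads scaled to the same total over all miRNA rows in each library, so each is a share of that library and not an amount of vesicle RNA. Fewer vesicles carrying an arm and fewer copies per vesicle cannot be told apart. The RPM steps implied 4400167 to 9391887 assigned reads per library. The neuron markers miR-124-3p, miR-9-5p and miR-128-3p were present in all libraries and summed to between 17156 and 20919 RPM in CON-BDEV libraries, with 15669 to 28117 RPM in SE-BDEV. Of 4 blood miRNAs, every library listed miR-451a and miR-144-3p at 0, and the list summed to 83.6 to 202 RPM over the CON-BDEV libraries and 109 to 116 RPM over SE-BDEV. The kidney miRNAs miR-192-5p and miR-194-5p summed to 5.45 to 14.3 RPM over CON-BDEV and 8.61 to 11.8 RPM over SE-BDEV. Both libraries numbered 3 stood apart in miR-24-3p, which the other 4 libraries listed at 0. CON-BDEV 3 held it at 3544 RPM, SE-BDEV 3 at 3128 RPM. Values without these 2 libraries are given beside several of the results.

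The miR-30 arms made up a small part of vesicle miRNA, and the groups overlapped in the sum of either side of the family. The 5p arms summed to 4183, 3608 and 4924 RPM in CON-BDEV 1 to 3 and to 4811, 3243 and 7017 RPM in SE-BDEV 1 to 3. The groups overlapped, and SE-BDEV 3 was highest while SE-BDEV 2 was lowest of all. The means were 4238 ± 660 and 5024 ± 1896 RPM (SD, n = 3), or 0.424% and 0.502% of the library, a log2 difference of 0.19 (exact permutation p = 0.7, two-sided, smallest possible 0.1). Without SE-BDEV 3 the log2 difference was -0.090, so that 1 library set its direction, and without both libraries numbered 3 it was 0.024. The 4 3p arms summed to 1681, 1991 and 2096 RPM in CON-BDEV and to 1929, 1833 and 2189 RPM in SE-BDEV. Their means were 1923 ± 215 and 1984 ± 184 RPM (SD, n = 3), a log2 difference of 0.047 (exact permutation p = 0.7, two-sided), and it was -0.024 with median-of-ratios scaling and -0.046 when library totals ignored the 10 most abundant rows. The 3p sum thus varied over a narrower range than the 5p sum.

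**Figure D1:**
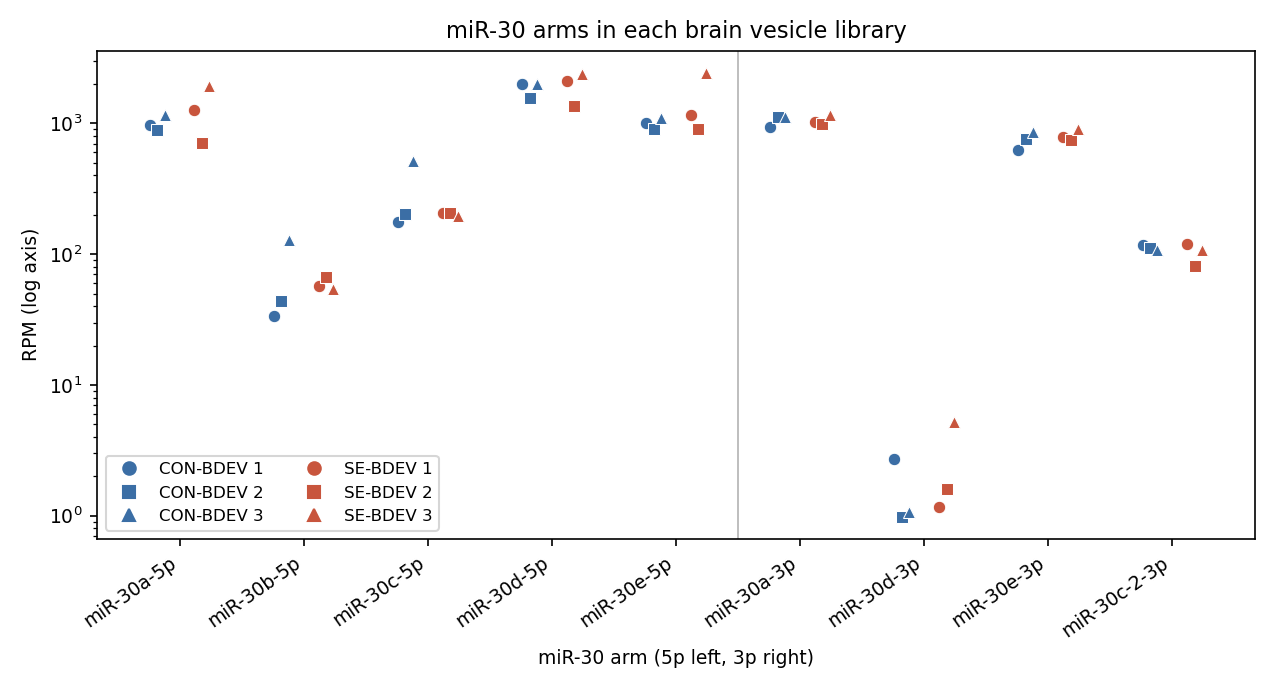
RPM (log axis) of the 9 miR-30 arms in each of the 6 libraries, CON-BDEV in blue and SE-BDEV in red, with the symbol giving the library number. The groups overlap for every arm, and CON-BDEV 3 stands above the rest for miR-30b-5p and miR-30c-5p while SE-BDEV 3 does so for miR-30a-5p and miR-30e-5p.

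By the mean over the 6 libraries, the order of the levels was miR-30d-5p (1911 RPM), miR-30e-5p (1253), miR-30a-5p (1153), miR-30a-3p (1060), miR-30e-3p (784), miR-30c-5p (249.7), miR-30c-2-3p (108), miR-30b-5p (63.7) and miR-30d-3p (2.12). RPM counts a read once whatever its length, and the sequences printed above have 22 or 23 bases. The ranges of neighbours overlapped from miR-30d-5p down to miR-30a-3p and between miR-30c-2-3p and miR-30b-5p. They did not overlap between miR-30a-3p and miR-30e-3p, miR-30e-3p and miR-30c-5p, miR-30c-5p and miR-30c-2-3p, or miR-30b-5p and miR-30d-3p. Among all rows miR-30a-3p ranked 46, near its own 5p arm at 44.

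Among the 5p arms, miR-30d-5p was the most abundant, at rank 33. It stood at 2005, 1568 and 2020 RPM in CON-BDEV 1 to 3 and at 2126, 1347 and 2402 RPM in SE-BDEV 1 to 3. The groups overlapped over their whole range. The limma log2 difference was 0.039 ± 0.27 (SE, adjusted p = 0.963), with a 95% interval of -0.55 to 0.63.

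The near-identical miR-30e-5p and miR-30a-5p were both highest in SE-BDEV 3. miR-30e-5p stood at 1002, 909.6 and 1105 RPM in CON-BDEV and at 1153, 913 and 2433 RPM in SE-BDEV. miR-30a-5p stood at 966, 884 and 1158 RPM in CON-BDEV and at 1269, 709 and 1934 RPM in SE-BDEV. In both, SE-BDEV 3 lay above every other library and SE-BDEV 2 lay within or below the controls. The log2 difference of miR-30e-5p was 0.45 ± 0.34 (SE, limma adjusted p = 0.66), with a 95% interval of -0.28 to 1.18. That of miR-30a-5p was 0.27 ± 0.34 (SE, limma adjusted p = 0.782), with an interval of -0.46 to 1.01. Without both libraries numbered 3 the log2 differences were 0.10 and 0.038, and without SE-BDEV 3 alone that of miR-30a-5p was -0.070.

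The pair miR-30c-5p and miR-30b-5p varied in another library. miR-30c-5p stood at 176, 203 and 514 RPM in CON-BDEV and at 205, 206 and 195 RPM in SE-BDEV. miR-30b-5p stood at 33.9, 43.5 and 127 RPM in CON-BDEV and at 56.6, 67.1 and 53.9 RPM in SE-BDEV. CON-BDEV 3 was the highest library for both, and the other 2 CON-BDEV libraries lay below all SE-BDEV libraries for miR-30b-5p and close to them for miR-30c-5p. The log2 difference of miR-30c-5p was -0.38 ± 0.39 (SE, limma adjusted p = 0.741), with a 95% interval of -1.23 to 0.46. It was 0.096 without CON-BDEV 3 and 0.12 without both libraries numbered 3. That of miR-30b-5p was 0.038 ± 0.43 (SE, limma adjusted p = 0.965), with an interval of -0.89 to 0.97, and it was 0.67 without both libraries numbered 3 (limma adjusted p = 0.600).

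These single high libraries were set against the whole table, a comparison chosen after the values were seen. CON-BDEV 3 was at least 1.5 times every other library for 9 of 308 tested miRNAs (2.92%), which included miR-30c-5p and miR-30b-5p. SE-BDEV 3 was so for 23 of 308 (7.47%), which included miR-30e-5p and miR-30a-5p. The largest such count was that of CON-BDEV 1, at 39 of 308 (12.7%) with no miR-30 arm among them. SE-BDEV 1 had 3 (0.974%), and CON-BDEV 2 and SE-BDEV 2 had 0. The sum of the neuron markers was also highest in SE-BDEV 3, at 28117 RPM, but unevenly across the list. miR-9-5p, itself among the 23 of SE-BDEV 3, was at 8512 RPM against at most 4431 elsewhere. miR-128-3p was at 10065 RPM against at most 7682, and miR-124-3p at 9540 RPM against 9134 in CON-BDEV 3. The part of these markers in the miR-30 values was not tested.

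The 3p arms other than miR-30d-3p varied over 1.24 to 1.49 times between libraries, against 1.78 to 3.76 times for the 5p arms and 5.28 times for miR-30d-3p. miR-30a-3p stood at 934.5, 1116 and 1124 RPM in CON-BDEV and at 1023, 998 and 1163 RPM in SE-BDEV. Its highest value was 1.24 times its lowest, against 2.73 times for miR-30a-5p. The log2 difference was 0.0058 ± 0.25 (SE, limma adjusted p = 0.991), with a 95% interval of -0.53 to 0.54. miR-30e-3p stood at 626, 763 and 862 RPM in CON-BDEV and at 785, 753 and 912 RPM in SE-BDEV. Its log2 difference was 0.13 ± 0.26 (SE, limma adjusted p = 0.896), with an interval of -0.44 to 0.70. In all 6 libraries miR-30a-3p was above miR-30e-3p, by 1.28 to 1.49 times.

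miR-30c-2-3p stood at 118, 111 and 108 RPM in CON-BDEV and at 119.9, 80.7 and 108 RPM in SE-BDEV. SE-BDEV 2 was low and the other 5 libraries lay close together. Its log2 difference was -0.14 ± 0.30 (SE, limma adjusted p = 0.901), with a 95% interval of -0.80 to 0.51. The related miR-30c-1-3p, from the other miR-30c hairpin, had a log2 difference of -0.28 ± 0.31 (SE, limma adjusted p = 0.759) and was 0.812 to 1.19 times miR-30c-2-3p over the libraries. The high miR-30c-5p value in CON-BDEV 3 had no counterpart in either 3p strand, at 108 RPM for miR-30c-2-3p and 119 RPM for miR-30c-1-3p in that library.

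miR-30d-3p was the rarest member and was not tested, because its mean was under 10 RPM. It stood at 2.73, 0.982 and 1.06 RPM in CON-BDEV and at 1.17, 1.60 and 5.19 RPM in SE-BDEV. These correspond to 12, 8 and 7 reads and to 11, 8 and 35 reads. SE-BDEV 3 held the most, and the groups overlapped. The authors' deposited table gave it a log2 fold change of 0.68 with a standard error of 1.09 and an adjusted p of 0.990.

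Of the 8 members tested, 6 had a log2 difference above 0 and 2 below, and none passed at an adjusted p under 0.05 by limma, against 3 of 308 tested miRNAs (0.974%). None had an unadjusted p under 0.05, against 10.4% of the 308. None had groups that did not overlap, against 16.2% of the 308. Their median log2 difference was 0.038, beside 0.061 over all tested miRNAs. In the authors' deposited table no member passed at an adjusted p under 0.05, against 1.12% of the 625 rows with an adjusted p, or at an unadjusted p under 0.05, against 6.52% of 797. Without both libraries numbered 3 again no member passed, against 1.32% of 303 tested miRNAs. The intervals above include differences of either sign, so equal levels in the groups are not shown.

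**Figure D2:**
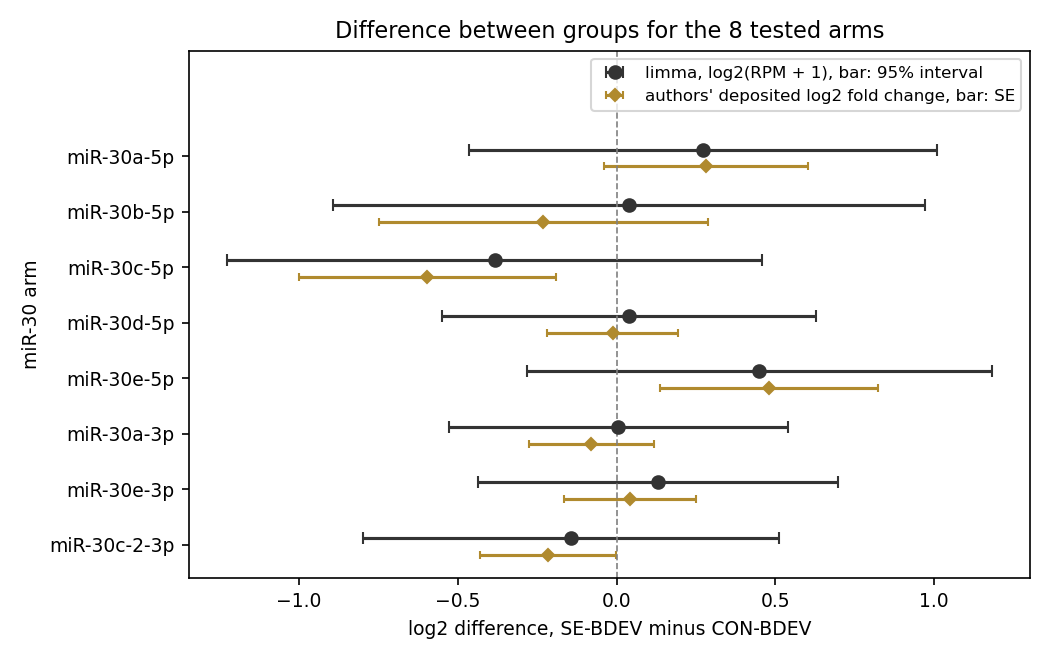
log2 difference of SE-BDEV minus CON-BDEV for the 8 tested miR-30 arms, from limma with its 95% interval (black) and from the authors' deposited table with its standard error (gold). All 8 limma intervals include 0, and the values run from -0.38 for miR-30c-5p to 0.45 for miR-30e-5p.

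Among the 8 arms tested by limma, the log2 fold changes of largest size in the authors' deposited table belonged to miR-30c-5p and miR-30e-5p. They were 0.48 with a standard error of 0.34 for miR-30e-5p (deposited adjusted p = 0.707) and -0.60 with a standard error of 0.40 for miR-30c-5p (deposited adjusted p = 0.695) in the authors' deposited table. In the authors' deposited table miR-30b-5p, miR-30d-5p and miR-30a-3p were at -0.23, -0.012 and -0.080, the opposite sign to limma. The log2 differences of these 3 arms also turned below 0 with median-of-ratios scaling and with library totals that ignored the 10 most abundant rows.

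Shares within the family do not depend on how libraries are scaled. miR-30d-5p made up 44.1% ± 3.50 of the summed 5p arms (SD, n = 3) in CON-BDEV, with 39.99% ± 5.16 in SE-BDEV. miR-30e-5p made up 23.96%, 25.2% and 22.4% in CON-BDEV 1 to 3 and 23.97%, 28.2% and 34.7% in SE-BDEV 1 to 3. It lay above every CON-BDEV share in SE-BDEV 2 and 3 but not in SE-BDEV 1, and differed by 5.06 percentage points (exact permutation p = 0.2, two-sided, smallest possible 0.1, adjusted over 5 arms 0.6). That difference was 2.19 points without SE-BDEV 3 and 1.48 points without both libraries numbered 3. miR-30a-5p made up 23.7% ± 0.713 and 25.3% ± 3.01, miR-30c-5p 6.75% ± 3.26 and 4.46% ± 1.80, and miR-30b-5p 1.53% ± 0.933 and 1.34% ± 0.664 (SD, n = 3). For these and miR-30d-5p the exact permutation p was 0.4 to 0.6, each 0.6 after adjustment. Without both libraries numbered 3 the differences were 0.333 points for miR-30a-5p (1.57 with all libraries), 0.398 for miR-30c-5p (-2.29), 0.616 for miR-30b-5p (-0.196) and -2.83 for miR-30d-5p (-4.15). miR-30c-5p ranged from 2.77% in SE-BDEV 3 to 10.4% in CON-BDEV 3.

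**Figure D3:**
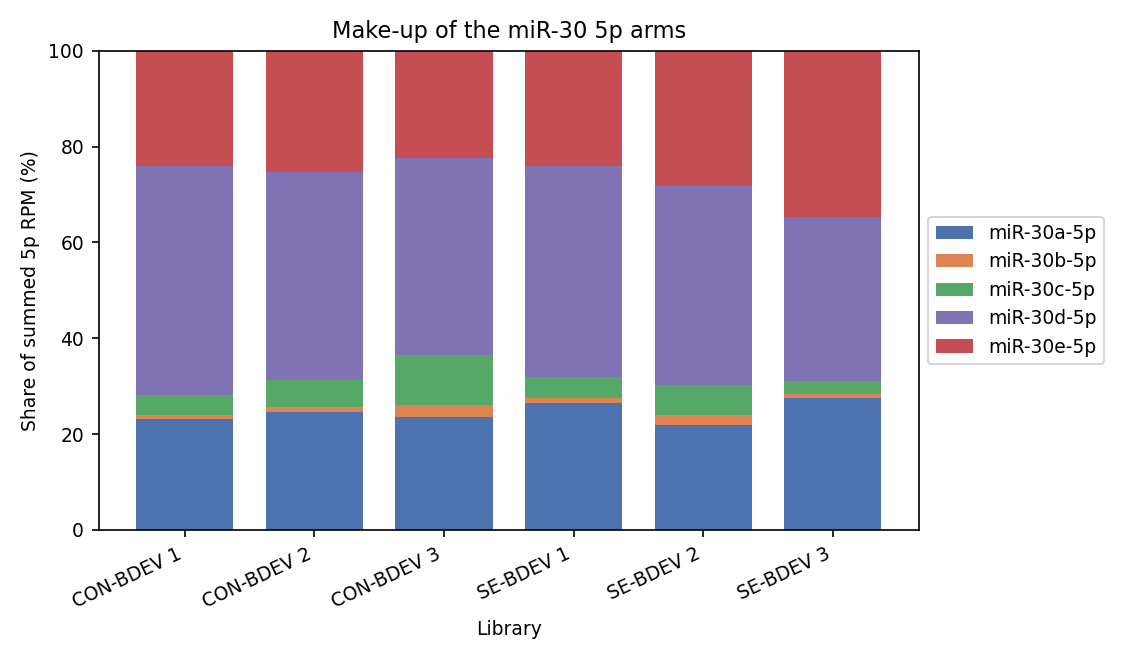
Share (%) of each of the 5 miR-30 5p arms in their summed RPM, 1 bar per library. miR-30d-5p is the largest part in 5 of the 6 bars, miR-30c-5p is widest in CON-BDEV 3 at 10.4%, and miR-30e-5p is widest in SE-BDEV 3 at 34.7%.

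Ratios between 5p arms of different miR-30 hairpins did not stay fixed over the libraries. Neighbouring hairpins can be cut from the same transcript, but miR-30c-5p comes from hairpins on chr1 and chr4, so ratios to it mix both loci. Positions of the miR-30d and miR-30b hairpins were not available here. miR-30d-5p was 59.2, 36.1 and 15.9 times miR-30b-5p in CON-BDEV and 37.5, 20.1 and 44.5 times in SE-BDEV. The lowest and highest ratios both fell in CON-BDEV. miR-30e-5p was 5.70, 4.49 and 2.15 times miR-30c-5p in CON-BDEV and 5.61, 4.43 and 12.5 times in SE-BDEV, a log2 difference of 0.83 that was -0.018 without both libraries numbered 3. miR-30a-5p was 5.49, 4.36 and 2.26 times miR-30c-5p in CON-BDEV and 6.18, 3.44 and 9.94 times in SE-BDEV, a log2 difference of 0.66 that was -0.084 without those libraries. miR-30a-5p and miR-30e-5p, which differ at 1 base, come from hairpins on different chromosomes. The ratio of miR-30a-5p to miR-30e-5p was the steadiest, at 0.994 ± 0.0465 (SD, n = 3) in CON-BDEV, with 0.891 ± 0.182 in SE-BDEV. Over the 4 ratios the exact permutation p was 0.4 to 1 (two-sided, smallest possible 0.1), 0.667 or more after adjustment over 4.

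The arms of 1 hairpin can be compared within a library, again without regard to scaling. For miR-30a the strands were nearly balanced. Its 5p arm was 1.03, 0.792 and 1.03 times its 3p arm in CON-BDEV 1 to 3 and 1.24, 0.711 and 1.66 times in SE-BDEV 1 to 3. The 3p arm was the more abundant in CON-BDEV 2 and SE-BDEV 2, and the groups overlapped. The limma log2 difference of this ratio was 0.27 ± 0.42 (SE, adjusted p = 0.910 over 52 arm pairs), with a 95% interval of -0.55 to 1.09.

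For miR-30e the 5p arm was 1.60, 1.19 and 1.28 times the 3p arm in CON-BDEV and 1.47, 1.21 and 2.67 times in SE-BDEV. All 6 libraries had more 5p than 3p, and SE-BDEV 3 had the highest ratio for miR-30e as for miR-30a. The log2 difference was 0.32 ± 0.42 (SE, limma adjusted p = 0.910), with an interval of -0.50 to 1.14, and it was -0.014 without SE-BDEV 3. In SE-BDEV 3 the 5p arms of both hairpins were high while their 3p arms, at 1163 and 912 RPM, were only slightly above the next library.

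miR-30d had a one-sided hairpin. Its 5p arm was 735, 1597 and 1898 times its 3p arm in CON-BDEV and 1815, 842 and 463 times in SE-BDEV, ratios that rest on the 7 to 35 reads of miR-30d-3p. miR-30b, whose 3p arm is no member, had 5p to 3p ratios of 0.776, 1.09 and 2.58 in CON-BDEV and 1.30, 1.77 and 1.24 in SE-BDEV. miR-30b-3p itself ranged from 37.8 to 49.4 RPM. miR-30c-5p, which comes from 2 hairpins, was 1.49, 1.82 and 4.76 times miR-30c-2-3p in CON-BDEV and 1.71, 2.55 and 1.80 times in SE-BDEV, a mixed ratio with a log2 difference of -0.24 ± 0.43 (SE, limma adjusted p = 0.910) that was 0.27 without CON-BDEV 3. The sum of both miR-30c 3p strands was 0.443 to 1.46 times miR-30c-5p, so it exceeded the 5p strand in 4 libraries.

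**Figure D4:**
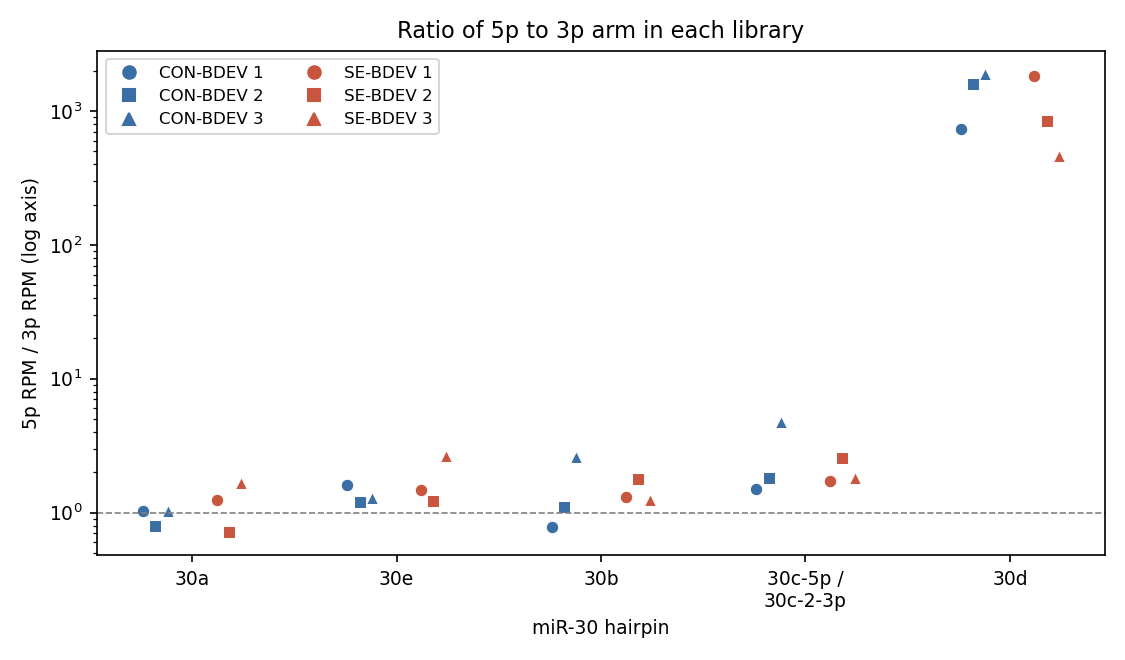
Ratio of 5p to 3p RPM (log axis) for each miR-30 hairpin in each library, with a dashed line where both arms are equal. miR-30a lies on both sides of the line from 0.711 to 1.66, miR-30e above it from 1.19 to 2.67, and miR-30d far above it from 463 to 1898.

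No miR-30 arm ratio was called by limma, nor was any of the 52 arm pairs tested (0%), of which 7.69% had an unadjusted p under 0.05 and no miR-30 pair did. No miR-30 pair had groups that did not overlap, against 1.92% of the 52. Across the 51 hairpin names with both arms at a mean of 10 RPM or more, the median distance from equal arms was 1.67 on the log2 scale, and 35.3% lay within 2-fold of equality. That filter leaves out hairpins with a rare arm, miR-30d among them. Merged rows, and arms without a partner of the same hairpin name, such as miR-30c-5p, were also left out. Shares and ranks therefore hold only among the 51 names. miR-30a, with a mean log2 ratio of 0.051, was the third closest to equality, miR-30b the ninth at 0.43 and miR-30e the 11th at 0.59. This is a description of these libraries, since strands also differ in how well library preparation captures them.

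**Figure D5:**
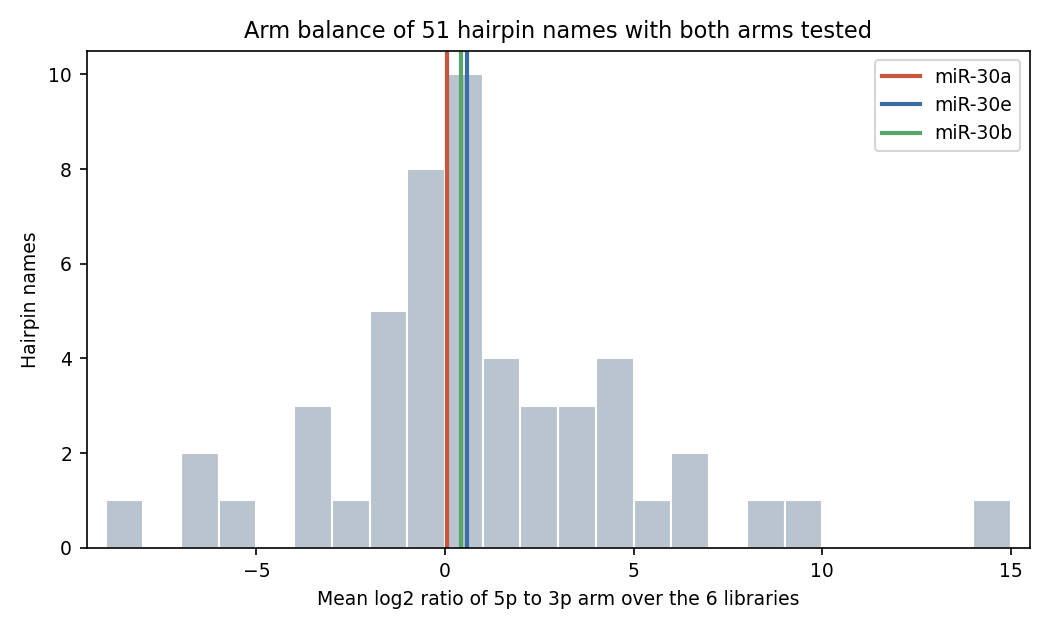
Number of hairpin names by their mean log2 ratio of 5p to 3p arm over the 6 libraries, for the 51 names with both arms tested. The lines mark miR-30a at 0.051, miR-30b at 0.43 and miR-30e at 0.59, close to equal arms, whereas the 51 names run from -8.25 to 14.45.

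Other miRNAs of the same name or seed were examined beside the members, and none was called. miR-384-5p, a brain miRNA with the miR-30 seed that has been linked to synaptic potentiation, stood at 44.1, 77.2 and 107 RPM in CON-BDEV and at 66.7, 79.7 and 87.3 RPM in SE-BDEV, with overlapping groups. Its log2 difference was 0.11 ± 0.35 (SE, limma adjusted p = 0.921). miR-30b-3p had a log2 difference of -0.086 ± 0.29 (SE, limma adjusted p = 0.931). miR-384-3p, with a mean of 8.79 RPM, was not tested and ranged from 4.47 to 18.5 RPM. miR-30f, annotated opposite the Mir30e hairpin, was listed at 0 in all libraries. Together with miR-30c-1-3p, 0 of these 5 rows, 3 of them tested, passed. Of the 308 tested miRNAs 0.974% passed, so a count of 0 is near that share.

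The miR-26, miR-29 and miR-181 families, which also have several copies and are found in many tissues, were set beside the miR-30 arms. Their tested members had median log2 differences of 0.52 (2 members), 0.39 (3 members) and 0.061 (4 members), against 0.038 for the 8 miR-30 members. In these families 0 passed, against 0.974% of the 308 tested miRNAs. Groups did not overlap for 1 of the 2 miR-26 members and for 0 of the miR-29 and miR-181 members, against 16.2% of the 308. The difference between families was not tested.

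The 5 tested miRNAs outside the members whose profile over the 6 libraries lay nearest to that of the summed miR-30 5p arms were miR-487b-3p, the merged miR-1843a-5p/1843b-5p, miR-708-5p, miR-185-5p and miR-128-3p. Likeness was the Euclidean distance between log2(RPM + 1) values centred on their mean, and it was 0.127, 0.171, 0.218, 0.273 and 0.326, against a median of 1.09 for all tested non-members. miR-30a-5p lay at 0.278, miR-30d-5p at 0.364 and miR-30e-5p at 0.509, while miR-30c-5p and miR-30b-5p lay farther out than that median, at 1.45 and 1.56. The summed profile consists mostly of miR-30d-5p, miR-30e-5p and miR-30a-5p. All these profiles share the same libraries and the same scaling.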

How the data were processed

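The authors deposited RPM values for 1926 miRNA rows in 6 libraries, per the file headers, and a table of their own comparison, whose mean normalized signal, log2 fold changes, test score and p-values, raw and adjusted, come from DESeq2 per the submitters' processing notes. Those notes also name mm9. RNA extraction used a miRNeasy Micro Kit and DNase, and the QIAseq miRNA Library Kit served for library preparation, per the labels' protocols. The aligner, the counting and the handling of molecular identifiers were not given in the sources used here. All RPM values were whole multiples, within 0.001 step, of 1 step per library, which implied the read totals. The smallest listed value was 2 reads, so the values were not taken as counts and no count model was fitted. A count of 3 reads equals 0.319 to 0.682 RPM, a floor that covers counting error only.

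limma 3.58.1 (R 4.3.3) was fitted two-sided on log2(RPM + 1), using robust empirical Bayes and a trend on intensity, for the 308 miRNAs whose mean reached 10 RPM. Fold changes on this scale understate the change of low miRNAs. Arm ratios were fitted likewise over 52 pairs, with the mean level of both arms as trend. Benjamini-Hochberg adjustment ran over each whole table, with calls at an adjusted p under 0.05. Sums, shares and ratios between 5p arms were tested by exact permutation (scipy 1.17.1). Both fits were run on simulated data with independent noise and planted changes larger than any miR-30 log2 difference of the main fits. Those runs therefore do not show how often differences as small as the miR-30 ones would be called. Named miRNAs are all 9 members, other rows named miR-30 with a letter, miR-384, and the 5 nearest profiles. The members, lists and tests were chosen with earlier results of these data known. Further marker lists were oligodendrocyte (137 to 169.9 RPM in CON-BDEV, 198 to 296 in SE-BDEV), muscle (139 to 184 and 170.1 to 265) and liver (75.0 to 79.7 and 88.7 to 132). The groups overlapped in the muscle sum and did not in the oligodendrocyte and liver sums. Of the 308 tested miRNAs, 16.2% had groups that did not overlap. Singly, miR-338-3p, miR-1a-3p and miR-122-5p, the only liver miRNA, were higher in SE-BDEV without overlap. So was the merged miR-133a-3p/133b-3p, at 2.81 RPM or less. Groups overlapped for the oligodendrocyte miR-219a-2-3p and the muscle miR-206-3p. miR-219a-5p was listed at 0 throughout.

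The groups share replicate numbers. Deviations from group means correlated at 0.216, 0.202 and 0.462 for pairs 1, 2 and 3, all over 0.1, but at -0.064, -0.061 and -0.081 without miR-24-3p. The labels do not say that numbers are pairs.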

Additional observations from a re-analysis of the deposited data

How the results depend on the processing

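The count of miR-30 arms called was 0 in all 16 alternatives to the level comparison, the authors' deposited comparison included, and the count of miR-30 arm ratios called was 0 in all 12 alternatives. This covers pseudocounts, filters, scalings, each library left out, both libraries numbered 3 left out and the replicate block. Few miRNAs of any kind were called, 0.974% of 308 in the main fit and 1.32% of 303 without both libraries numbered 3. It was 1.12% of 625 in the authors' deposited table, and 0 of the 52 arm pairs in the main fit. A count of 0 among the members is near those shares, which are not given for the other alternatives. With the replicate number as a block, 0 miR-30 arms and 0 miR-30 arm ratios were called, so the block changed no call of a member. The lowest limma adjusted p of a member in that fit was 0.538, for miR-30e-5p at a log2 difference of 0.45. The planned edgeR and DESeq2 fits were not run because the values were not taken as counts. The depth limits miR-30d-3p, with 7 to 35 reads, most.

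Several small values changed sign, and none was called. With median-of-ratios scaling miR-30b-5p was at -0.032, miR-30d-5p at -0.033, miR-30a-3p at -0.066 and the 3p sum at -0.024. With totals that ignored the 10 most abundant rows they were at -0.052, -0.054, -0.087 and -0.046. With quantile normalization miR-30b-5p was at -0.050 and miR-30d-5p at -0.15. In the authors' deposited table miR-30b-5p was at -0.23, miR-30d-5p at -0.012 and miR-30a-3p at -0.080. The first 2 of these scalings lowered log2 differences of all miRNAs by construction, with shifts of -0.072 for median-of-ratios and -0.093 for the reduced total. Without both libraries numbered 3, miR-30c-5p was at 0.12, miR-30d-5p at -0.067, miR-30a-3p at -0.016, the miR-30e arm ratio at -0.050, the miR-30c-5p to 30c-2-3p ratio at 0.34, the shares of miR-30b-5p and miR-30c-5p at 0.616 and 0.398 percentage points, and the neighbour ratios d to b, a to c and e to c at -0.74, -0.084 and -0.018. With no pseudocount the ratio of d to b was at -0.0042, from 0.00017. Beyond the construction of each alternative, the cause was not tested.

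Leaving out 1 library gave log2 differences of -0.070 to 0.65 for miR-30a-5p, -0.33 to 0.61 for miR-30b-5p, -0.67 to 0.096 for miR-30c-5p, -0.13 to 0.29 in the case of miR-30d-5p, -0.081 to 0.052 for miR-30a-3p and -0.26 to 0.020 for miR-30c-2-3p. For miR-30e-5p and miR-30e-3p they stayed above 0, at 0.034 to 0.74 and 0.0057 to 0.24. Arm ratios ran from -0.0083 to 0.60 for miR-30a, -0.014 to 0.55 for miR-30e and -0.56 to 0.27 for miR-30c-5p to 30c-2-3p. The 5p sum ran from -0.090 to 0.47, the 3p sum from -0.046 to 0.11, the share of miR-30b-5p from -0.561 to 0.331 percentage points and the ratio of d to b from -0.51 to 0.43.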

Other observations

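The libraries in which single miR-30 arms were high also held other miRNAs at 1.5 times or more every other library, a list drawn up after the values were seen and given as values. In CON-BDEV 3, beside miR-30c-5p and miR-30b-5p, the merged miR-23a-3p/23b-3p was at 845 RPM against 345 to 481 elsewhere, and miR-434-3p was at 225 RPM against 111 to 140.3. In SE-BDEV 3, beside miR-30e-5p and miR-30a-5p, miR-137-3p was at 3390.3 RPM against 840.4 to 1253, miR-9-5p, a neural miRNA, at 8512 RPM against 3549.9 to 4431, and miR-29b-3p at 1165 RPM against 294 to 392. CON-BDEV 1 held 39 such miRNAs, with no miR-30 arm among them, and CON-BDEV 2 and SE-BDEV 2 held 0.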
